A study of Arabidopsis thaliana with 5 samples.

Results

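Polygalacturonases, the enzymes of glycoside hydrolase family 28, were followed in sorted root cells of Arabidopsis thaliana. The cells were those with an active promoter of BRL3, which encodes a receptor of brassinosteroids. The family was taken as 60 genes listed by locus, and 42 of them had an array probe set that named that gene alone. Another 10 were measured only by 4 probe sets that name several members. The other 8 had no probe set listed for them in the annotation used and were not analysed here. These 8 include ADPG2 and QRT2, which act in cell separation, PGX1, which acts in cell expansion, and the genes PGA3 and PGA4.

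All seedlings carried the reporter pBRL3:nlsYFP, a yellow fluorescent protein sent to the nucleus under the BRL3 promoter, and were 6 days old. The BL group was kept for 2 h in liquid medium that held 10 nM of brassinolide (BL), a natural brassinosteroid of high activity, and the control group for the same time with ethanol as mock. The walls of primary root tip cells were then digested away, fluorescent protoplasts were sorted, and RNA of these cells was put on Affymetrix ATH1 arrays, 2 from BL (replicates 1 and 2) and 3 from control (replicates 1 to 3). A sort on this reporter takes whatever cells had an active BRL3 promoter, and BRL3 itself had no probe set with a single gene name, so the sorted identity could not be checked on it. In such pooled cells, fewer cells of a type and less RNA per cell cannot be told apart.

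Pectin is the gel-like polysaccharide that fills the space between cellulose fibres and glues neighbouring plant cells together. Its main chain, homogalacturonan, is a string of galacturonic acid units that is laid down with methyl groups, which pectin methylesterases then remove. Polygalacturonases cut the demethylated chain. In this way they loosen walls that expand and open the layer between cells that separate, as at the root cap, in dehiscing fruits and in anthers. Brassinosteroids are steroid hormones that promote cell elongation, and cell wall genes are among their known targets in seedlings.

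The arrays were unequal. Across the 22746 probe sets tested, which are not independent replicates, the 2 BL arrays correlated at 0.992, control replicate 1 with the BL arrays at 0.969 to 0.974, and control replicate 2 with the others at 0.898 to 0.915. Spike-in RNA added before labelling had medians of 4.50 and 4.61 in BL replicates 1 and 2, 4.60 in control replicate 1, 7.92 in control replicate 2 and 7.25 in control replicate 3 (log2). For this reason the BL mean was set against the mean of all 3 controls and also against control replicate 1 alone, and the plot of differences shows both for each of the 42 members. Values are log2 expression values on the scale the authors deposited, where a difference of 1 is a fold of 2. Hybridisation controls, which are added after labelling, had medians of 8.02 and 7.68 in BL replicates 1 and 2. They were 8.49, 10.48 and 9.41 in control replicates 1, 2 and 3. Control replicates 2 and 3 thus stood apart here too. Control replicate 1 also lay above both BL arrays, and whether the narrower comparison holds a technical difference was not tested.

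No member passed the test against all controls. The limma fit, adjusted by Benjamini-Hochberg over the whole array, called 0 of the 42 members at an adjusted p under 0.05, against a background of 0% of all probe sets, and the smallest adjusted p of a member was 0.437. Before adjustment, 4 members had a p under 0.05, all higher with BL, against 7.1% of all probe sets, or 4.05% on the higher side and 3.06% on the lower. An ordinary linear model also called 0 members after adjustment and 4 before it. The 4 are AT2G43890, AT2G43880, AT3G57790 and AT1G48100. Every "higher" and "lower" that follows is thus an order of measured values and not a call.

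The family did not move as a block. Of the 42 members, 20 had means that were higher with BL and 22 had lower ones, where 44.9% of all probe sets were higher and 54.5% lower. The median difference was -0.0097 over the members and -0.023 over all probe sets. Of the 42 members 31 differed by less than 0.5 in either direction, as did 17890 of all 22746 probe sets. Differences of at least 1 were found in 5 members on the higher side, where 3.5% of all probe sets reached that size, and in 1 member on the lower side, where 3.2% did. Both BL values lay above all 3 control values in 7 members, against 11.4% of all probe sets, and below them in 1 member, against 9.75%.

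**Figure D1:**
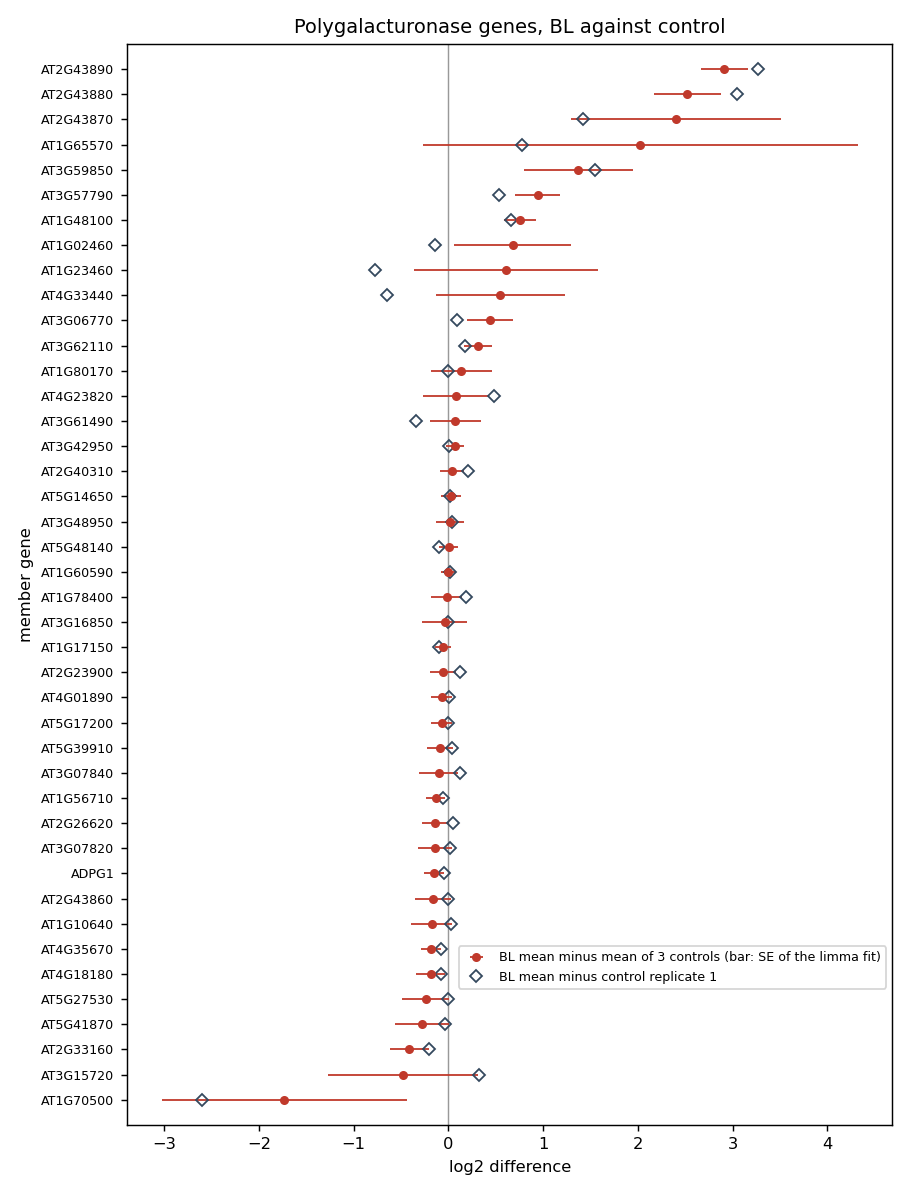
Log2 difference of each of the 42 members (rows). Filled circles are the BL mean minus the mean of 3 controls with the standard error of the limma fit, and open diamonds are the BL mean minus control replicate 1. Most members sit within 0.5 of zero, AT2G43890 (2.92), AT2G43880 (2.52) and AT2G43870 (2.41) stand at the top, and AT1G70500 (-1.73) is at the bottom.

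The 3 widest differences on the higher side belonged to near neighbours on the chromosome. AT2G43870, AT2G43880 and AT2G43890 form a row with AT2G43860, another family member. In RefSeq assembly TAIR10.1 the stretch from AT2G43860 to AT2G43890 holds these 4 and 1 other protein-coding gene. Between which members that gene lies was not analysed here. AT2G43890 was at 7.10 in both BL arrays, against 3.83, 4.58 and 4.15 in control replicates 1, 2 and 3. The BL values were nearly identical and lay far above every control. Its BL mean was 7.10 ± 0.0021 (SD, n = 2) and its control mean 4.19 ± 0.379 (SD, n = 3), a difference of 2.92 ± 0.25 (SE) that did not pass (limma adjusted p = 0.437). Against control replicate 1 alone the difference was 3.27 ± 0.233 (SE, limma adjusted p = 0.514). Control replicates 1 and 3 lay below the 25th percentile of all values, and with such values raised to that percentile the differences were 2.79 over all controls and 2.93 against control replicate 1.

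AT2G43880 was at 7.29 and 7.85 in BL replicates 1 and 2, against 4.52, 5.21 and 5.42 in control replicates 1, 2 and 3. Here too the groups were well apart, by more than the range within either. The difference was 2.52 ± 0.353 (SE), a fold of 5.74 (limma adjusted p = 0.548), and 3.05 ± 0.309 (SE) against control replicate 1 (limma adjusted p = 0.514). Both genes kept an unadjusted p under 0.05 in every alternative setting in which they were tested, 13 for AT2G43890 and 14 for AT2G43880, and an adjusted p under 0.05 in none. Over these settings the differences ran from 2.74 to 3.27 for AT2G43890 and from 2.24 to 3.05 for AT2G43880. Some of the settings left out 1 array. The setting with a term for controls 2 and 3 gave the difference from control replicate 1.

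AT2G43870 was at 8.76 and 9.36 in BL replicates 1 and 2, against 7.64, 4.66 and 7.68 in control replicates 1, 2 and 3. The BL values again lay above all controls, but control replicate 2 was about 3 log2 units below the other controls (range of the controls 3.02). The difference was 2.41 ± 1.11 (SE), with 1.41 without control replicate 2 and 1.42 ± 1.52 (SE) against control replicate 1 (limma adjusted p = 0.747 over all controls and 1 against control replicate 1).

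AT2G43860, the remaining member of this row, gave a different picture. It was at 3.86 in both BL arrays, against 3.86, 4.34 and 3.86 in control replicates 1, 2 and 3. The BL arrays and control replicate 1 were equal, control replicate 3 differed from them by less than 0.01, and the difference was -0.16 ± 0.189 (SE), or 0 against control replicate 1. Closely related neighbours can share hybridisation signal, and whether the probes of these genes tell each other apart was not tested.

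**Figure D2:**
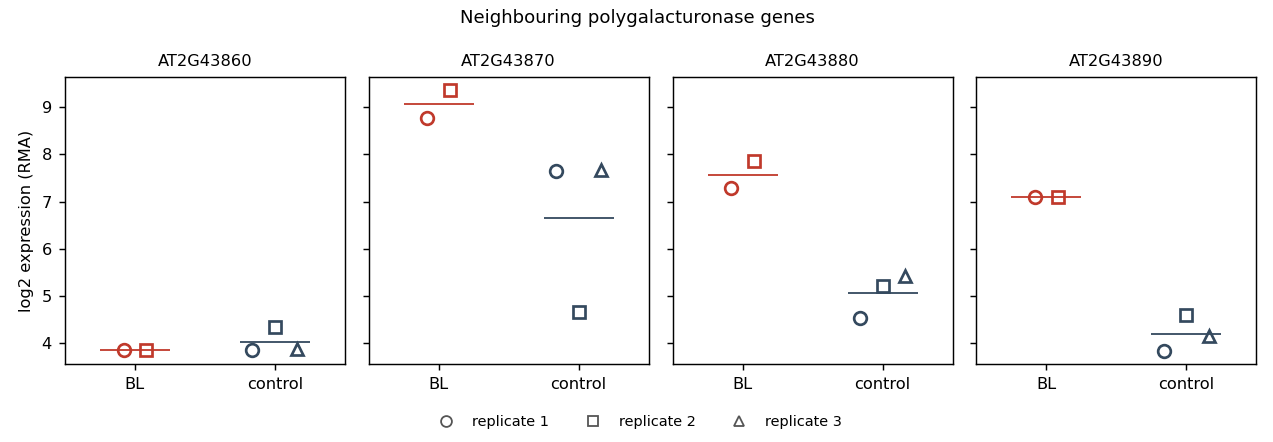
Log2 expression of the 4 neighbouring members in each array. Symbols mark the replicate number, red is BL and blue is control, and lines are group means. AT2G43880 and AT2G43890 have both BL values near or above 7.1 and all controls below 5.5, AT2G43870 has 1 low control at 4.66, and AT2G43860 stays near 4.

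A second pair of neighbours, AT1G05650 and AT1G05660, shares 1 probe set, whose signal cannot be assigned to either gene. It was at 6.08 and 7.85 in BL replicates 1 and 2, against 3.92, 5.87 and 4.15 in control replicates 1, 2 and 3. Both BL values lay above the controls, BL replicate 1 only narrowly above control replicate 2. The difference was 2.32 ± 0.872 (SE) and 3.04 against control replicate 1, and neither passed (limma adjusted p = 0.711 and 0.703). The other 3 shared probe sets lay between -0.082 and 0.063. They stand for AT1G43080, AT1G43090 and AT1G43100, for AT2G15450, AT2G15460 and AT2G15470, and for AT3G07850 and AT3G14040. 

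AT3G07820 and AT3G07840, which flank PGA3, have probe sets of their own. AT3G07820 was at 3.48 in both BL arrays, against 3.46, 3.92 and 3.48 in control replicates 1, 2 and 3. AT3G07840 was at 4.62 and 4.74 in BL replicates 1 and 2, against 4.56, 4.67 and 5.12 in control replicates 1, 2 and 3. Both overlapped their controls, of which 1 array stood higher in each, with differences of -0.14 ± 0.181 and -0.10 ± 0.205 (SE) that were 0.014 and 0.12 against control replicate 1.

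AT3G59850 was the remaining member with a difference over 1 and no overlap between the groups. Its values were 5.07 and 6.81 in BL replicates 1 and 2, against 4.39, 4.85 and 4.47 in control replicates 1, 2 and 3. The BL arrays differed from each other by 1.74, the widest gap between them among the 42 members, and BL replicate 2 carried most of the difference. That difference was 1.37 ± 0.575 (SE), with 2.24 without BL replicate 1, 0.50 without BL replicate 2 and 1.55 ± 0.883 (SE) against control replicate 1 (limma adjusted p = 0.735 over all arrays).

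Members with a known part in cell expansion were mostly near the low end of the scale. PGX3 (AT1G48100), which acts in the wall expansion of seedlings and stomata, was at 5.21 and 4.76 in BL replicates 1 and 2, against 4.32, 4.17 and 4.19 in control replicates 1, 2 and 3. All controls lay within 0.16 of each other and below both BL values. The difference was 0.76 ± 0.17 (SE), a fold of 1.69, and 0.66 against control replicate 1 (limma adjusted p = 0.571 and 0.663). PGX2 (AT1G78400), which acts in expansion and stem stiffness, was at 3.58 and 3.66 in BL replicates 1 and 2, against 3.43, 3.60 and 3.88 in control replicates 1, 2 and 3. Its groups overlapped, with a difference of -0.02 ± 0.166 (SE) that was 0.19 against control replicate 1. PGLR (AT5G14650), a polygalacturonase described in roots, was at 3.51 and 3.56 in BL replicates 1 and 2, against 3.52, 3.61 and 3.39 in control replicates 1, 2 and 3, a difference of 0.03 ± 0.105 (SE) and of 0.020 against control replicate 1.

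Among members tied to cell separation, RCPG (AT1G65570), the root cap polygalacturonase that helps cap cells detach, had the widest spread between arrays of all 42 members. It was at 9.94 and 10.75 in BL replicates 1 and 2, against 9.57, 4.23 and 11.15 in control replicates 1, 2 and 3. In all arrays but control replicate 2 it was high, and the BL values fell between control replicates 1 and 3. The difference of 2.03 ± 2.29 (SE) became -0.016 without control replicate 2 and was 0.77 against control replicate 1. RCPG was the only one of 4 root cap markers with a single-gene probe set. It and AT2G43870 were both low in control replicate 2, which was the lowest of the 5 arrays for 9 of the 42 members and for 28.4% of all probe sets. The part of root cap cells in either difference was not tested.

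ADPG1, which opens siliques and anthers, was at 3.33 and 3.23 in BL replicates 1 and 2, against 3.33, 3.53 and 3.45 in control replicates 1, 2 and 3. Its groups overlapped by a narrow margin at the low end of the scale, with a difference of -0.15 ± 0.104 (SE, limma adjusted p = 0.789) and of -0.049 against control replicate 1. NIMNA (AT2G33160), needed for elongation of the suspensor of the embryo, was the single member with both BL values below all controls. It was at 3.99 and 3.72 in BL replicates 1 and 2, against 4.06, 4.57 and 4.18 in control replicates 1, 2 and 3. The difference was -0.41 ± 0.204 (SE), and -0.20 against control replicate 1 (limma adjusted p = 0.757 over all controls). Both BL values and control replicate 1 lay below the 25th percentile of all values. With such values raised to that percentile, the difference over all controls was -0.14.

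The lower end of the family was held by AT1G70500. It was at 5.13 and 5.30 in BL replicates 1 and 2, against 7.81, 8.42 and 4.60 in control replicates 1, 2 and 3. Control replicates 1 and 2 lay far above both BL values and control replicate 3 below them, so the groups overlapped. The difference was -1.73 ± 1.29 (SE) over all controls (limma adjusted p = 0.794), -2.90 without control replicate 3, where alone of the arrays left out its unadjusted p was under 0.05, -0.99 without control replicate 2 and -2.60 against control replicate 1. AT3G15720, next on the lower side, was at 5.17 and 5.13 in BL replicates 1 and 2, against 4.83, 7.06 and 4.99 in control replicates 1, 2 and 3. Only control replicate 2 lay above the BL values, and the difference of -0.48 ± 0.787 (SE) turned to 0.24 without it and to 0.32 against control replicate 1.

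The lower side was otherwise shallow. AT5G41870 was at 5.33 and 5.40 in BL replicates 1 and 2, against 5.40, 5.39 and 6.14 in control replicates 1, 2 and 3. AT5G27530 was at 3.97 and 3.74 in BL replicates 1 and 2, against 3.86, 4.50 and 3.93 in control replicates 1, 2 and 3. In each gene 1 control array stood above the rest and the other arrays overlapped, with differences of -0.28 ± 0.281 and -0.24 ± 0.247 (SE) that were -0.037 and -0.0014 against control replicate 1.

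**Figure D3:**
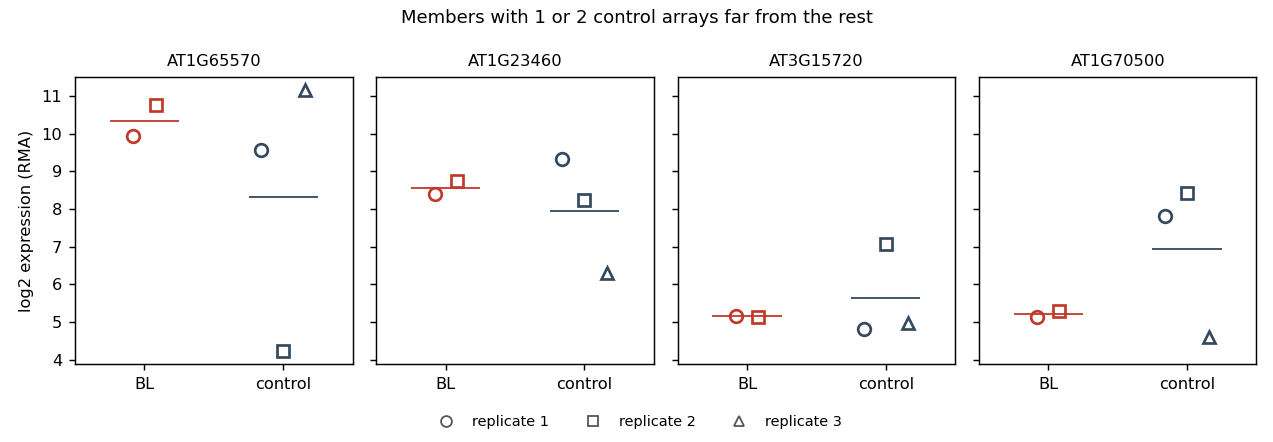
Log2 expression of 4 members whose control arrays lie far apart. Symbols mark the replicate number, red is BL and blue is control, and lines are group means. Control replicate 2 is low for AT1G65570 (4.23) and high for AT3G15720 (7.06), and control replicate 3 is low for AT1G23460 (6.30) and AT1G70500 (4.60).

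Wide control ranges marked several of the brighter members. In 8 members the controls spanned 1 or more, while the BL arrays did so in 1. A range over 3 arrays tends to be wider than a gap between 2. The median control SD was 0.265 over the members and 0.264 over all probe sets. The median BL SD was 0.063 and 0.082. By these medians, controls spread more than BL among all probe sets too. The median control SD was 0.484 over members with means above the median of all probe sets and 0.196 over those below it. How many of all probe sets had controls spanning 1 or more was not counted. Of the 8, AT4G23820 and AT3G15720 had means below the median of all probe sets. AT1G23460 was at 8.38 and 8.74 in BL replicates 1 and 2, against 9.33, 8.23 and 6.30 in control replicates 1, 2 and 3. Its probe set names 1 gene but carries the same suffix (_s_at) as the 4 shared probe sets. Whether it measures this gene alone was not tested. BL lay inside the controls, above control replicates 2 and 3 in mean and below control replicate 1, which gave 0.61 ± 0.973 (SE) over all controls and -0.77 against control replicate 1. AT4G33440 showed the same order, at 8.63 and 9.03 in BL replicates 1 and 2 and 9.48, 7.90 and 7.47 in control replicates 1, 2 and 3. Its difference was 0.55 over all controls and -0.65 against control replicate 1. AT1G02460 was at 7.47 and 8.19 with BL, against 7.98, 7.31 and 6.18 in control replicates 1, 2 and 3, with 0.68 over all controls and -0.14 against control replicate 1.

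AT3G57790 had groups that did not overlap. It was at 8.59 and 8.70 in BL replicates 1 and 2, against 8.11, 7.44 and 7.56 in control replicates 1, 2 and 3. Both BL values lay above every control, control replicate 1 being the nearest. The difference was 0.94 ± 0.239 (SE), a fold of 1.92, and 0.54 ± 0.122 (SE) against control replicate 1 (limma adjusted p = 0.594 and 0.521). The controls spanned 0.67, more than the gap between the groups. The unadjusted limma p of 0.0153 was 0.068 without BL replicate 1, 0.0866 without BL replicate 2 and 0.0552 without control replicate 3. AT3G62110 had the same order with less distance, at 7.18 and 7.50 in BL replicates 1 and 2 and 7.16, 6.90 and 7.01 in control replicates 1, 2 and 3, a difference of 0.32 ± 0.15 (SE) and of 0.18 against control replicate 1. AT3G06770 differed by 0.44 ± 0.243 (SE) and by 0.095 against control replicate 1, with the BL replicate 1 value of 8.31 just under the 8.33 of control replicate 1.

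Other members at this level hardly differed. AT1G80170, AT3G61490 and AT3G42950 had differences of 0.14, 0.08 and 0.07, and AT3G16850 one of -0.04. The differences of AT3G61490 and AT3G42950 from control replicate 1 were -0.34 and 0.0088. In AT1G80170 and AT3G16850 both BL values equalled control replicate 1 exactly, as they did in 4 members in all. Ties between arrays were present in 15 of the 42 members, against 44.7% of all probe sets. Such ties can come with the summary method used on few arrays.

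A filter on low values kept part of the family. Of the 42 members, 14 had a mean over the 5 arrays above the median of all probe sets (5.65 on the log2 scale), where 50% of probe sets do by construction, and 28 lay below it. The mean includes the groups compared: AT2G43880 passed through its BL values, its controls all being under 5.65, and AT1G70500 through control replicates 1 and 2.

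Most dimmer members were flat, which here means a difference of means under 0.3 in either direction. By this cut 23 of the 28 were flat, 5 higher and 18 lower with BL, with differences between -0.28 and 0.084. The share of all dimmer probe sets under the same cut was not counted. All values of these 23 members lay between 3.23 and 6.14. Besides PGX2, PGLR, ADPG1, AT2G43860, AT3G07820, AT3G07840, AT5G27530 and AT5G41870, already given, these are AT4G23820, AT2G40310, AT3G48950, AT5G48140, AT1G60590, AT1G17150, AT2G23900, AT4G01890, AT5G17200, AT5G39910, AT1G56710, AT2G26620, AT1G10640, AT4G35670 and AT4G18180. AT4G23820, at 4.91 in both BL arrays, was the one with the widest difference from control replicate 1, 0.48. How far values this low lie over background was not analysed here. AT5G48140, taken as a marker of pollen, a tissue absent from root tips, was at 3.68 with BL and 3.68 in controls. It is itself among these flat members, so it gives no separate measure of background for them.

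**Figure D4:**
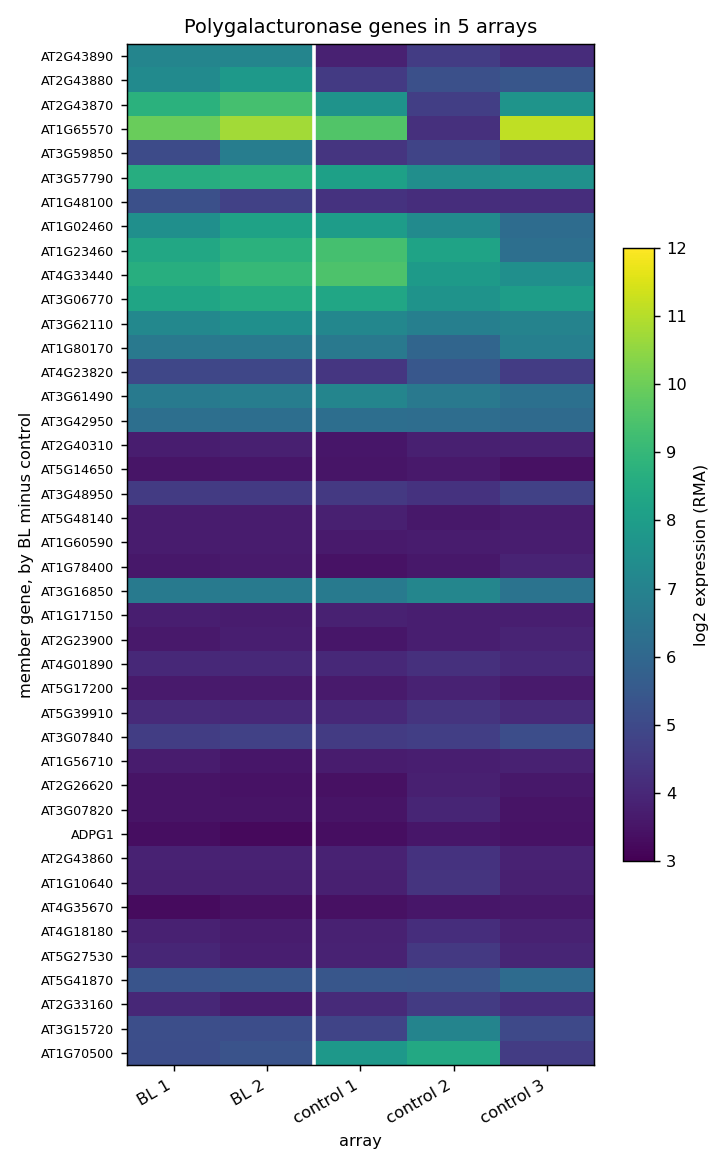
Log2 expression of the 42 members (rows, ordered by BL minus control) in each array (columns, BL left of the white line and control right of it). Colour runs from 3 to 12 on the log2 scale. RCPG (AT1G65570) reaches 11.15 in control replicate 3 and 4.23 in control replicate 2, and most rows below the middle stay dark in all arrays.

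Against control replicate 1 alone, limma with a term for control replicates 2 and 3 called 0 of the 42 members after Benjamini-Hochberg adjustment, against 0% of all probe sets. At an unadjusted p under 0.05 there were 3 members, against 8.08% of all probe sets. These were AT2G43890, AT2G43880 and AT3G57790, all higher with BL, where 3.43% of all probe sets were higher at that p and 4.65% lower. In this comparison 24 members were higher, 14 lower and 4 equal, and 50.5% of all probe sets were higher. Differences of at least 1 were found in 4 members on the higher side, against 1.78% of all probe sets, namely AT2G43890, AT2G43880, AT3G59850 and AT2G43870, and in 1 on the lower side, AT1G70500, against 4% of all probe sets. Both comparisons use the same BL arrays and share control replicate 1, so the second is not independent of the first.

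**Figure D5:**
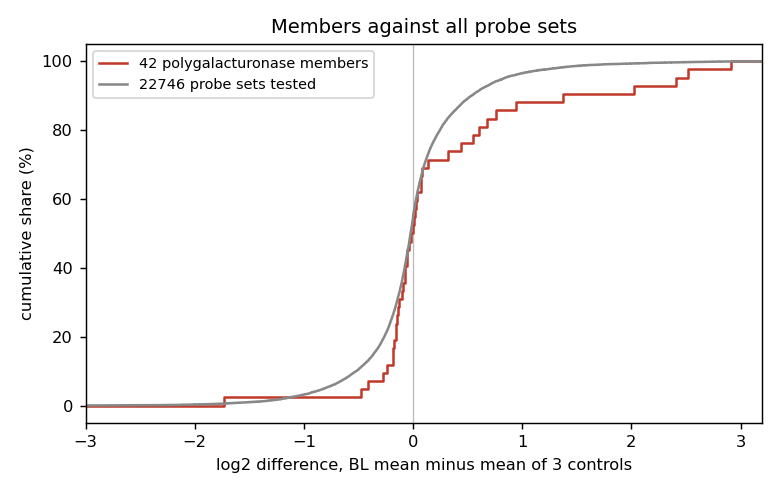
Cumulative share (vertical axis, %) of the 42 members (red) and of all 22746 probe sets tested (grey) against the log2 difference, BL mean minus the mean of 3 controls. The curves cross zero at about the same height (medians -0.0097 and -0.023), and the red curve lags on the right, where 5 members differ by 1 or more.

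Few other genes of the pectin pathway had a single-gene probe set in the annotation used, which gave one to 13333 genes. Whether the array holds probes for the others was not tested. Of 16 genes for homogalacturonan synthesis 1 had a single-gene probe set, GAUT15, a galacturonosyltransferase, at 5.12 with BL and 5.09 in controls, a difference of 0.027 ± 0.12 (SE) and of 0.12 against control replicate 1. Of 21 genes described as pectin methylesterases or their inhibitors 4 were measured, and all 4 had lower means with BL, with a median difference of -0.37 that was -0.28 against control replicate 1. None reached an unadjusted p under 0.05. PMEPCRF was at 6.26 with BL and 6.91 in controls, a difference of -0.65 ± 0.472 (SE), and ATPMEPCRB was at 3.84 with BL and 4.27 in controls, -0.43 ± 0.199 (SE). These were -1.24 and -0.52 against control replicate 1. The 3 genes of polygalacturonase-inhibiting proteins and QRT3, a polygalacturonase of pollen separation, had no single-gene probe set and were not analysed here.

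Few markers of other cells had a single-gene probe set in the annotation used. EXPA7 and EXPA18, expansin genes of hair cells, had differences of -0.27 ± 0.824 and 0.14 ± 0.653 (SE), which were 0.57 and 0.85 against control replicate 1, and both were highest in control replicate 2, at 6.52 and 6.17. The cortex marker CO2 had means of 3.83 (BL) and 3.84 (control), the phloem regulator OPS at 4.69 with BL and 4.76 in controls, and the leaf gene RCA at 4.57 with BL and 4.79 in controls. The differences of CO2, OPS and RCA from control replicate 1 were 0.37, 0.075 and -0.20. Markers of the endodermis, the xylem and the quiescent centre had no single-gene probe set.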

How the data were processed

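The deposited table holds log2 expression values, which the authors made with RMA (R 4.1.1, affy 1.70.0, limma 3.48.3), per the submitters' processing notes; base 2 is inferred from RMA and from how far the values reach. RMA corrects background, quantile normalizes arrays and summarises probes by median polish, which can give tied values. Of 22810 probe sets, 64 Affymetrix controls were set aside. Genes were named through the platform annotation and RefSeq (TAIR10.1, names and gene order only); a member needed a probe set that names 1 gene, and none had several. No sequence was used here.

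Differences were estimated on all 5 arrays by lmFit and eBayes of limma 3.58.1 (R 4.3.3), with Benjamini-Hochberg adjustment over 22746 probe sets and a threshold of 0.05. BL minus control replicate 1 came from the same model with a term for control replicates 2 and 3, which leaves 2 residual degrees of freedom against 3, so the spread of control replicate 1 is borrowed from the other arrays. The script was tested on simulated data. The labels do not say whether replicates were separate batches of seedlings, so the spread behind each p-value is that among these arrays and may be technical, and 5 arrays limit the precision. Members and lists were chosen with earlier results of these data known. Every measured member is named. Values in every array are given for those with known roles, for neighbours and for the 5 widest differences in each direction. The per-array values of AT3G57790, AT3G62110, AT1G23460, AT4G33440 and AT1G02460 were added after seeing them. List genes named are the 2 with the smallest p. Alternatives changed the block, the normalization, the filter and floor on dim probe sets, the variance model, array weights and the arrays left out.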

Additional observations from a re-analysis of the deposited data

How the results depend on the processing

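No member reached an adjusted p under 0.05 in any alternative; the lowest was 0.0773, with array weights. The floor called 15 probe sets against control replicate 1, none of them members. Of 784 member values under alternatives 75, in 29 members, turned, mostly near 0. The remaining 709 did not turn to the other sign. Some of these became exactly 0, as with the floor in ADPG1, AT1G60590 and AT1G17150, and so kept no direction. Of the 134 values of the 5 widest members on each side, over all controls, 3 turned. The cause of each turn was not tested. Over the brighter probe sets only, 14 members remain by construction, with a median difference of 0.49, and 2 members had an unadjusted p under 0.05 (1 against control replicate 1, where 996 of all probe sets did). The mean behind this filter includes the BL arrays, through which alone AT2G43880 passed, so these values support nothing. All probe sets at that p numbered 1616; the ordinary linear model gave 993, array weights 3505 and leaving out 1 array 674 (without BL replicate 1) to 3507 (without control replicate 1), with 3 to 6 members. Against control replicate 1, leaving out a BL array gave 683 to 872 in place of 1839.

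Whether replicate numbers pair the arrays could not be decided. The correlation of deviations from group means was -0.060 between replicates 1 and 0.037 between replicates 2. With only 2 BL arrays, replicate 1 lies as far from their mean as replicate 2 does, on the opposite side. The correlations are thus not separate checks, and low values do not exclude pairing. The replicate block drops control replicate 3 from the contrast. With it 4 members and 1211 probe sets had an unadjusted p under 0.05. AT3G57790 was no longer among them and AT1G70500, lower with BL at -2.90, was. With the block AT1G23460 turned to -0.22, AT1G60590 to 0.010, AT1G78400 to 0.10, AT2G23900 to 0.021, AT3G07840 to 0.065, AT3G61490 to -0.11, AT4G23820 to -0.025 and AT5G14650 to -0.029.

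Over all controls, AT1G60590 turned to 0.029 and AT1G78400 to 0.010 with quantile normalization, and to 0.050 and 0.033 with cyclic loess. Against control replicate 1, quantile normalization gave AT1G60590 -0.0089, AT1G10640 -0.013, AT3G07820 -0.012, AT4G01890 -0.032, AT5G14650 -0.011 and AT5G41870 0.011. Cyclic loess gave AT1G60590 -0.014, AT1G10640 -0.0079, AT3G07820 -0.023, AT4G01890 -0.021 and AT5G14650 -0.018. Array weights turned AT1G80170 to -0.093, AT2G40310 to -0.0098, AT3G16850 to 0.14, AT3G48950 to -0.090 and AT5G48140 to -0.0052. The term for controls 2 and 3 turned AT1G23460 to -0.77, AT1G60590 to 0.021, AT1G10640 to 0.023, AT1G02460 to -0.14, AT1G78400 to 0.19, AT2G23900 to 0.13, AT2G26620 to 0.048, AT3G07820 to 0.014, AT3G07840 to 0.12, AT3G15720 to 0.32, AT3G61490 to -0.34, AT4G01890 to 0.0067, AT4G33440 to -0.65, AT5G39910 to 0.042 and AT5G48140 to -0.098.

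Leaving out 1 array at a time gave both signs in some members; a single remaining BL array takes its spread from the controls. Ranges were -0.12 to 0.10 for AT1G78400, -0.15 to 0.021 for AT2G23900, -0.076 to 0.12 for AT3G48950, -0.052 to 0.095 for AT2G40310, -0.12 to 0.39 for AT4G23820, -0.14 to 0.34 for AT1G80170 and -0.27 to 0.012 for AT1G10640. They were -0.016 to 3.44 for AT1G65570, -0.22 to 0.0072 for AT3G07820, -0.88 to 0.24 for AT3G15720, -0.21 to 0.15 for AT3G16850, -0.11 to 0.0067 for AT4G01890, -0.11 to 0.0018 for AT5G17200 and -0.16 to 0.013 for AT5G39910. They were -0.047 to 0.055 for AT5G48140, -0.22 to 1.30 for AT1G23460, -0.011 to 0.010 for AT1G60590, -0.22 to 0.065 for AT3G07840, -0.11 to 0.28 for AT3G61490 and -0.029 to 0.082 for AT5G14650. Against control replicate 1 they were -0.51 to 0.22 for AT1G02460, -0.021 to 0.038 for AT3G42950, -0.0018 to 0.015 for AT4G01890, -0.10 to 0.0017 for ADPG1, -0.13 to 0.019 for AT1G56710, -0.017 to 0.21 for AT3G06770, -0.0033 to 0.043 for AT5G14650 and -0.12 to 0.11 for AT5G27530. The mean over several probe sets of a gene was not run, since each measured member had 1.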
